A study of Homo sapiens with 6 samples.

Results

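The ephrin, semaphorin and plexin guidance genes are the ligands and receptors by which neighbouring cells steer, repel or hold each other. They were taken from the deposited gene table by symbol: Eph receptors, ephrins, class 3 to 7 semaphorins, plexins and neuropilins. The rule found 53 of the 58243 genes in the table, 28 of them ligands (8 ephrins and 20 semaphorins) and 25 receptors (14 Eph receptors, 9 plexins and 2 neuropilins). The rule reads symbols only. RNA was sequenced from cells labelled Hep3B, a line derived from a human hepatocellular carcinoma. The si-SNHG17-1 group (3 libraries) was transfected with a small interfering RNA against the long noncoding RNA SNHG17, and the si-NC group (3 libraries) with a control siRNA. A single siRNA against SNHG17 is in the series, its sequence is not given in the sources used here, and the labels do not say whether replicates came from separate cultures. The p-values therefore speak of the spread among the 6 libraries, which may be technical.

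Eph receptors are the largest family of receptor tyrosine kinases, and their ephrin ligands are held in the membrane of the neighbouring cell, so that a signal can pass into both cells at once. Semaphorins are secreted or membrane-bound and act mostly through plexins, whose cytoplasmic part turns off small GTPases of the Ras and Rap type. The class 3 semaphorins usually need a neuropilin to bind a plexin of the A type. First described in growing axons, both systems also act in blood vessels and in carcinoma cells, where they bear on adhesion, migration and invasion.

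Total counts ranged from 30207055 to 42271168 per library. SNHG17 had 307, 338 and 254 counts in si-SNHG17-1 and 843, 953 and 948 in si-NC, so that 35.2% of the control level was left. Of 10 hepatocyte markers, 9 stayed under 1 CPM, the count relative to library size, in every library. The highest value of any was 1.83 CPM (FGB), and the albumin gene ALB did not exceed 0.811 CPM. These low levels are at odds with the hepatocyte origin that the label implies. The cells are called here by their label only, and their identity was not tested. Expression levels below are CPM scaled by TMM, edgeR's correction for library composition. Groups were compared with edgeR's quasi-likelihood test across 18679 genes, and a gene was called at a Benjamini-Hochberg adjusted p under 0.05. In bulk RNA, fewer cells of a type and less RNA per cell cannot be told apart.

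Of the 53 guidance genes, 43 had enough counts to be tested. Of these, 3 rose (EPHB2, PLXNA1 and NRP1) and 3 fell (EPHB4, PLXNB2 and SEMA3G). Of all genes tested, 5.25% were called higher and 5.21% lower. The members called were 6 of 43, or 14.0%, beside 10.5% of all genes, so the share called was near the background. The median log2 fold change of the tested members was 0.08, and that of all genes tested was −0.00. The receptors held 5 of the 6 calls, 27.8% of 18 tested, and the ligands 1, or 4% of 25. The receptor count was 1 without si-SNHG17-1 replicate 1 or replicate 2, and 3 without any other single library. Calls over all genes fell in these fits too, from 980 higher and 974 lower of 18679 tested. They were 313 and 264 of 19456 without si-SNHG17-1 replicate 1, and 402 and 366 of 19330 without replicate 2. The difference between receptors and ligands in the share called was not tested. The tested receptors had a median level of 19.4 CPM and a median standard error of 0.14 (log2), against 9.53 CPM and 0.21 for the ligands. Among all genes at 20 CPM or more 16.4% were called, and among members at that level 3 of 8 receptors and 0 of 6 ligands were.

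**Figure D1:**
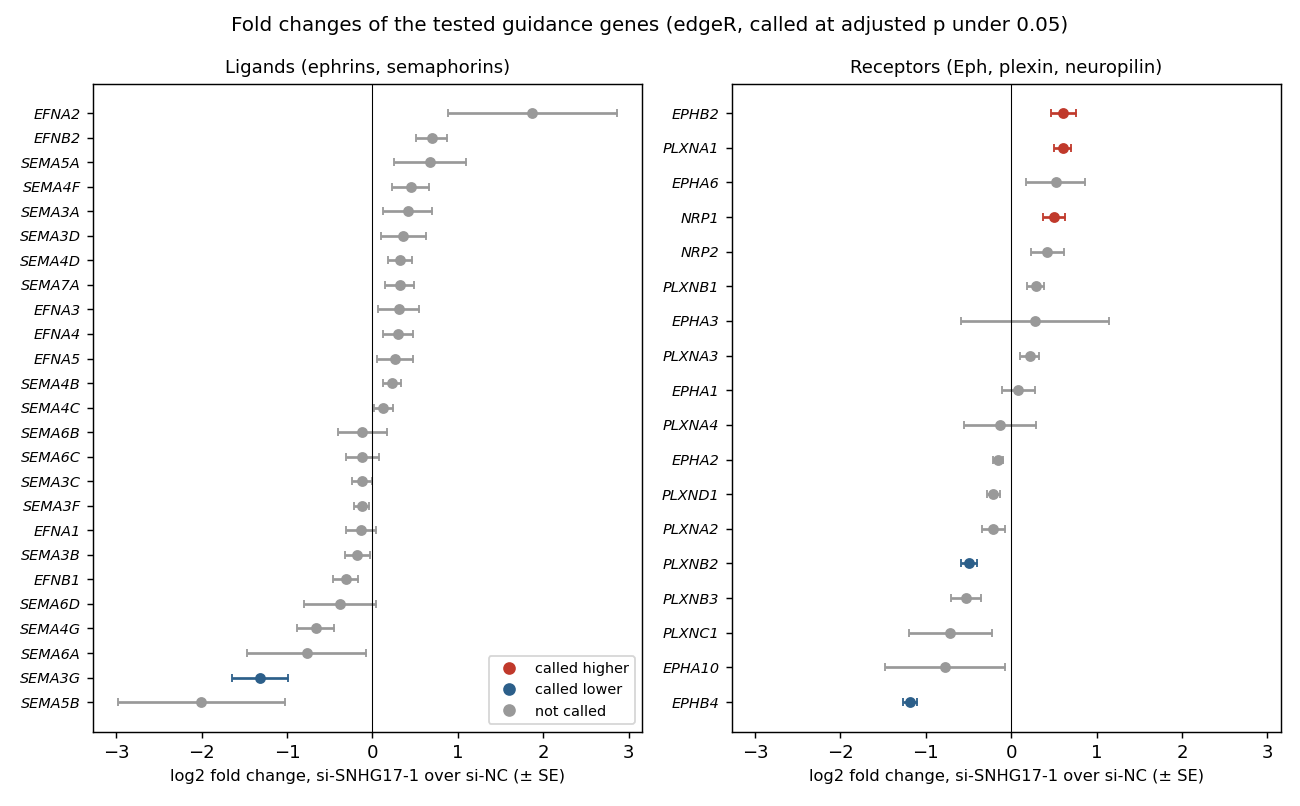
Log2 fold change (si-SNHG17-1 over si-NC, x axis) of the 25 tested ligands and 18 tested receptors, with bars for the standard error; red and blue points were called higher and lower by edgeR, grey points were not called. The only called ligand is SEMA3G, while EPHB4 has the lowest value among the receptors, −1.19, and EPHB2 the highest, 0.61.

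EPHB4 was the member with the clearest change. It encodes the receptor that binds ephrin-B2, a pair best known for keeping arterial and venous cells apart. It was at 54.6, 57.9 and 50.5 CPM in the si-SNHG17-1 libraries, against 123, 123 and 126 CPM in the si-NC libraries. The groups were far apart, and within each the libraries lay close together. The mean was 54.3 ± 3.69 CPM in si-SNHG17-1 cells and 124 ± 2.17 CPM in si-NC cells (SD, n = 3 each), so that 43.9% of the control level was left. On the log2 scale the difference was −1.19, standard error 0.08, edgeR adjusted p = 0.000582. The call was kept in all 13 alternative fits, at adjusted p up to 0.0150. An exact permutation test of a single gene cannot go below p = 0.1 with 3 against 3 libraries. EPHB4 (ENSG00000196411.9) is a minus-strand gene of chromosome 7, spanning 100802565 to 100827521 in GRCh38. Exons of SLC12A9, on the opposite strand, overlap 1.07% of its exonic bases. SLC12A9 had 663, 847 and 605 counts in si-SNHG17-1 and 1080, 975 and 1208 in si-NC, and the part of shared reads in either gene was not tested.

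The 3′ UTR of EPHB4 held a short word that was also frequent among other genes that fell. All 7-base words were ranked by how much more often they occurred in the longest annotated 3′ UTR of genes called lower by 2-fold or more than in those of all tested genes, with the 53 guidance genes left out. The word ranked first was TCAATCA. It was present in 28 of 88 genes that fell by 2-fold or more (31.8%), in 13 of 180 that rose by as much (7.22%) and in 1197 of all 13719 genes searched (8.73%). Genes with the word had a median log2 fold change of −0.10 and 13.8% were called lower, against 0.00 and 5.70% of genes without it. Their 3′ UTRs were also longer, with a median of 3345 bases against 1451. The word came from these same fold changes, so its share among the lower genes and the lower median of genes holding it are descriptions only.

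Among the 43 tested members, 5 held the word (11.6%, beside 8.73% of the genes searched), and EPHB4 was the only called one among them. Of the 1197 other genes with the word, 5.43% were called higher and 13.8% lower. In EPHB4 the word stood once, in all 3 coding transcripts that have a 3′ UTR. The 7 bases are shown in capitals with 10 bases on each side, read 5′ to 3′ on the gene's own strand from GENCODE 29 transcripts, to set the EPHB4 match beside those of members that were not called.
EPHB4: accaccaaacTCAATCAtttttttccc
SEMA6D: taatgtgagtTCAATCAgtatttatgt
EPHA3: gtgctaaataTCAATCAagccatgtat
SEMA5A: tcttaaactgTCAATCAagcaagaaaa
SEMA5B: ctgaaagtaaTCAATCAagtggctcca
The stretches lie in GRCh38 at chr7:100802989-100803015 (minus strand) for EPHB4, chr15:47773927-47773953 (plus) for SEMA6D, chr3:89481938-89481964 (plus) for EPHA3, chr5:9037111-9037137 (minus) for SEMA5A and chr3:122909673-122909699 (minus) for SEMA5B. The log2 fold changes of the others were −0.38 for SEMA6D, 0.28 for EPHA3, 0.67 for SEMA5A and −2.0 for SEMA5B, none of them called, and none of the 4 exceeded 3.16 CPM in any library. The word was in 1 of 3 coding transcripts of EPHA3 and in 6 of 10 of SEMA6D. None of the other 5 called members held the word or its first 6 bases in its longest 3′ UTR. Short matches between an siRNA and 3′ UTRs are known to lower transcripts other than the intended target. The sequence of si-SNHG17-1 was not at hand, so whether the word matches it was not tested.

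**Figure D2:**
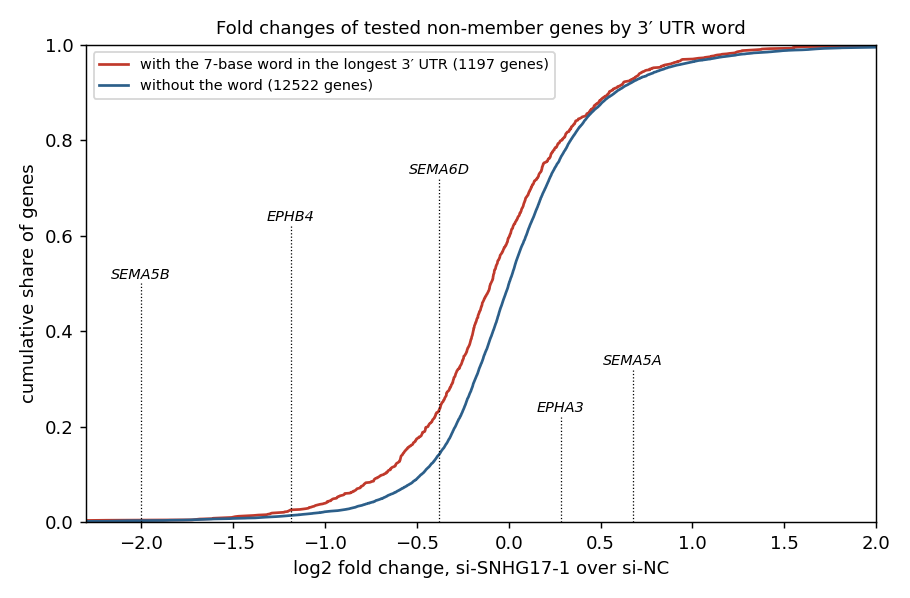
Cumulative share (y axis) of tested non-member genes by log2 fold change (x axis), in red for 1197 genes with the top-ranked 7-base word in the longest 3′ UTR and in blue for 12522 genes without it. The red curve lies to the left of the blue one around the medians (−0.10 with the word, 0.00 without), and dotted lines mark the 5 tested members that hold the word, of which EPHB4 at −1.19 was the only one called. The word was picked from the fold changes drawn here, and genes with it have longer 3′ UTRs, so the shift is a description only.

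EPHB2, the other B-type Eph receptor that was tested, moved the opposite way. It had 22.9, 25.8 and 22.1 CPM in si-SNHG17-1 libraries, against 13.0, 16.6 and 16.7 CPM in si-NC libraries. All values of si-SNHG17-1 lay above all of si-NC. EPHB2 rose 1.53-fold (log2 fold change 0.61, standard error 0.15, edgeR adjusted p = 0.0406), but lost the call whichever library was left out, at adjusted p of 0.0713 to 0.137. Per kilobase of longest transcript, EPHB4 was 4.93 ± 0.153 times as abundant as EPHB2 in si-SNHG17-1 cells and 17.4 ± 2.47 times in si-NC cells (SD, n = 3 each). EPHB4 thus remained the more abundant of the pair in every library.

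EPHA2, which binds ephrin-A1 and is often high in carcinoma cells, was the most abundant Eph receptor. It stood at 424, 434 and 413 CPM in si-SNHG17-1 and at 465, 451 and 498 CPM in si-NC. The groups did not overlap, yet the log2 fold change of −0.15 (standard error 0.06) was not called (edgeR adjusted p = 0.169). Groups without overlap were found for 19 of the 43 members, 10 higher and 9 lower, beside 33.7% of all genes tested (16.4% higher and 17.3% lower). Per kilobase EPHA2 made up 87.2% of all Eph receptor RNA in si-SNHG17-1 cells and 80.7% in si-NC cells.

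The remaining Eph receptors were low. EPHA1 averaged 6.77 ± 1.46 CPM in si-SNHG17-1 and 6.40 ± 0.419 CPM in si-NC (SD, n = 3 each; log2 fold change 0.08, edgeR adjusted p = 0.834). EPHA3, EPHA6 and EPHA10 stayed at or below 2.37 CPM in every library and were not called. EPHA3 was uneven, with 52, 50 and 28 counts in si-SNHG17-1 and 8, 11 and 94 in si-NC, where replicate 3 stood apart. A further 7 Eph receptors (EPHA4, EPHA5, EPHA7, EPHA8, EPHB1, EPHB3 and EPHB6) were too low to test and did not exceed 0.933 CPM. EPHA5 and EPHB1 had 0 counts in all 6 libraries. A count of 0 allows up to 0.0977 CPM in the shallowest library (3 counts, counting error only).

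None of the 7 tested ephrins was called, and EFNB3 had counts in a single library. EFNB2, which encodes the ephrin-B2 that EPHB4 binds, came closest and was singled out after its values were seen. It was at 8.48, 8.09 and 11.3 CPM in si-SNHG17-1, against 5.31, 6.18 and 5.75 CPM in si-NC. Every si-SNHG17-1 value was above every si-NC value. On the log2 scale the difference was 0.69 (standard error 0.18, edgeR adjusted p = 0.0531). It was called by DESeq2 (adjusted p = 0.0117), with total counts only (0.0456) and with a filter of 1 CPM in 3 libraries (0.0430). The other 10 alternative fits did not call it. Among them were limma-voom (0.0616), the replicate block (0.126) and every edgeR fit that dropped 1 library (0.085 to 0.143). DESeq2 called 9.65% of all genes higher and 9.51% lower. Per kilobase, EPHB4 was 5.94 ± 1.38 times as abundant as EFNB2 in si-SNHG17-1 cells and 21.4 ± 1.64 times in si-NC cells (SD, n = 3 each). With the median transcript length these ratios were 21.3 ± 4.95 in si-SNHG17-1 and 76.7 ± 5.88 in si-NC. Exons of AL138689.2, on the opposite strand, overlap 26.2% of the exonic bases of EFNB2.

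EFNA1, the ligand of EPHA2, was the most abundant ephrin and was uneven among control libraries. Its values were 147, 139 and 118 CPM in si-SNHG17-1 and 115, 142 and 186 CPM in si-NC. The si-NC libraries spanned the range of the others (log2 fold change −0.13, edgeR adjusted p = 0.693), and without si-NC replicate 3 the value was 0.07. EFNB1 had 9.87, 9.78 and 8.46 CPM in si-SNHG17-1 and 11.3, 10.7 and 12.9 CPM in si-NC, without overlap and without a call (log2 fold change −0.31, edgeR adjusted p = 0.222). EFNA5 had 17.5, 14.98 and 19.6 CPM in si-SNHG17-1 and 15.7, 17.1 and 10.5 CPM in si-NC, with overlap (0.26, edgeR adjusted p = 0.472). EFNA2 had the highest fitted fold change of all members, 1.87 with a standard error of 0.99, on 41, 36 and 16 counts in si-SNHG17-1 and 0, 19 and 8 in si-NC. It was not called (edgeR adjusted p = 0.276).

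EFNA4, EFNA3 and EFNA1 lie next to each other on chromosome 1, between 155063731 and 155134857 of GRCh38. They did not share a direction: the log2 fold changes were 0.30, 0.31 and −0.13, none of them called. A read-through gene, AL691442.1, overlaps 44.7% of the exonic bases of EFNA3 and 14.96% of those of EFNA4. It had 1, 0 and 9 counts in si-SNHG17-1 and 35, 57 and 34 in si-NC. How shared reads were counted is not given in the sources used here, so EFNA3 and EFNA4 are uncertain.

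**Figure D3:**
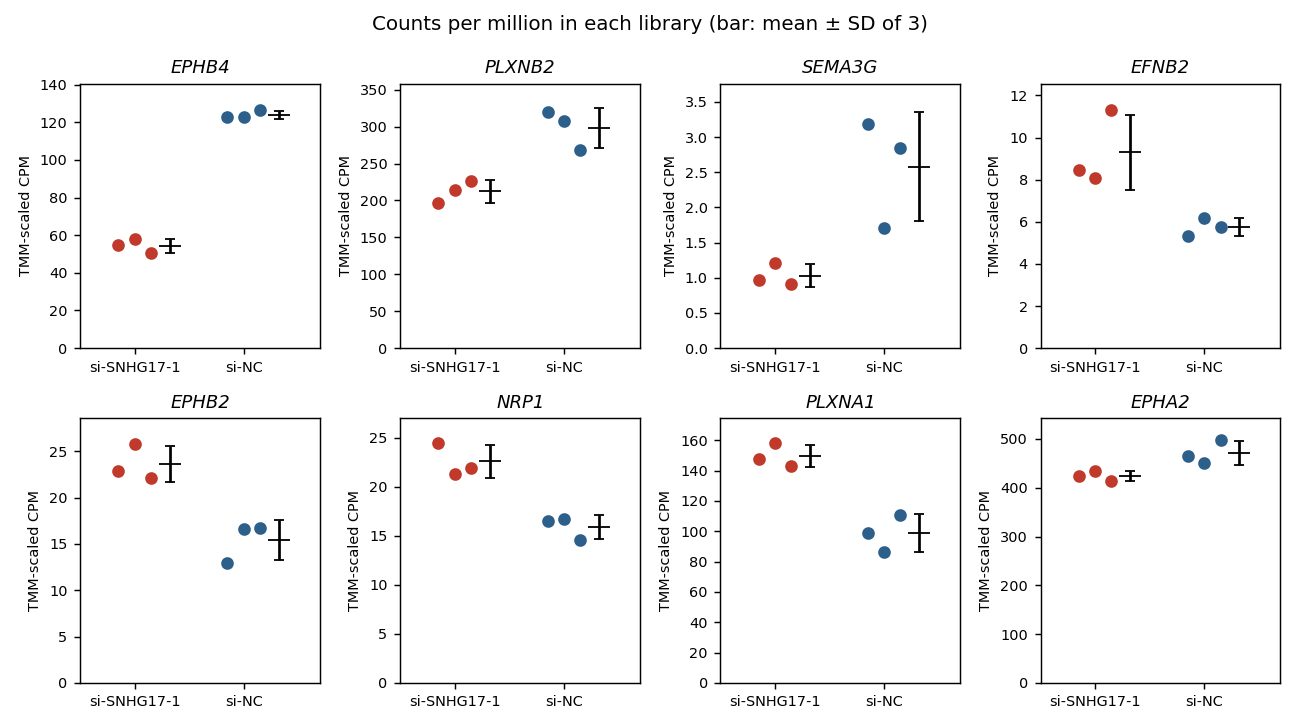
TMM-scaled CPM (y axis, from 0) of 8 guidance genes in the 3 si-SNHG17-1 and 3 si-NC libraries (points), with mean ± SD as black bars. EPHB4 is at 50.5 to 57.9 CPM in si-SNHG17-1 and at 123 to 126 CPM in si-NC, the 6 called genes and EFNB2 show no overlap between groups, and EPHA2 shows a gap that was not called.

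Among the plexins, PLXNA1 rose and PLXNB2 fell. PLXNA1 is a main signalling receptor for class 3 semaphorins bound to a neuropilin, and for class 6 semaphorins. It had 148, 158 and 143 CPM in si-SNHG17-1, against 99.0, 86.1 and 111 CPM in si-NC, and the si-SNHG17-1 values were all higher. The mean was 150 ± 7.45 CPM in si-SNHG17-1 and 98.6 ± 12.4 CPM in si-NC (SD, n = 3 each), with a log2 fold change of 0.60, a standard error of 0.11 and an edgeR adjusted p of 0.0145. It lost the call without si-SNHG17-1 replicate 1 (0.0605) or replicate 2 (0.0582).

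PLXNB2, a receptor of the membrane-bound class 4 semaphorins and of SEMA4C in particular, was at 196, 215 and 226 CPM in si-SNHG17-1, against 320, 308 and 268 CPM in si-NC. All si-SNHG17-1 values were lower, and the mean was 71.1% of that in si-NC. It fell by 0.49 on the log2 scale (standard error 0.09, edgeR adjusted p = 0.0179). Leaving out replicate 1 (0.0785) or 2 (0.0639) of si-SNHG17-1, or replicate 2 of si-NC (0.0537), ended the call. Per kilobase, PLXNB2 was 2.02 ± 0.195 times as abundant as PLXNA1 in si-SNHG17-1 cells and 4.37 ± 0.842 times in si-NC cells (SD, n = 3 each). By longest transcript PLXNB2 was the most abundant plexin in both groups, with 38.1% of plexin RNA per kilobase in si-SNHG17-1 and 47.6% in si-NC. By median transcript length PLXND1 led instead, at 272 CPM per kilobase in si-SNHG17-1 and 314 in si-NC, beside 141 and 198 for PLXNB2. The median over all annotated transcripts was 626 bases for PLXND1 and 1503.5 for PLXNB2, against 7094 and 6383 for the longest. The order by median length thus depends on the short transcripts annotated for each gene.

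PLXND1, which takes up SEMA3E without a neuropilin, was at 159, 179 and 173 CPM in si-SNHG17-1 and at 193, 187 and 210 CPM in si-NC. These groups did not overlap, but the log2 fold change of −0.21 was not called (standard error 0.08, edgeR adjusted p = 0.148). Its ligand gene SEMA3E had at most 13 counts in any library and was not tested. PLXNB3, singled out after its values were seen, had a log2 fold change of −0.53 and an edgeR adjusted p of 0.0979, and was called by DESeq2 (0.0458) and by edgeR without si-NC replicate 2 (0.0473). The other 11 alternative fits did not call PLXNB3, with adjusted p up to 0.236 (edgeR without si-SNHG17-1 replicate 1). Exons of SRPK3, on the same strand, overlap 20.4% of the exonic bases of PLXNB3. SRPK3 had 4, 18 and 17 counts in si-SNHG17-1 and 9, 20 and 15 in si-NC. PLXNB3 had 319, 359 and 273 counts in si-SNHG17-1 and 512, 406 and 550 in si-NC. PLXNB1, the receptor of SEMA4D, had a log2 fold change of 0.29 (edgeR adjusted p = 0.113). The other plexins, PLXNA2, PLXNA3, PLXNA4 and PLXNC1, had log2 fold changes of −0.21, 0.22, −0.13 and −0.71, none of them called. PLXNC1, the receptor of SEMA7A, did not exceed 1.14 CPM.

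Both neuropilins had positive log2 fold changes, and NRP1 was called. Neuropilins are co-receptors with little signalling of their own, for class 3 semaphorins and for vascular endothelial growth factor. NRP1 had 24.5, 21.3 and 21.9 CPM in si-SNHG17-1, against 16.5, 16.7 and 14.5 CPM in si-NC. It rose 1.42-fold with no overlap between groups (log2 fold change 0.50, standard error 0.13, edgeR adjusted p = 0.0457). The call was lost whichever library was left out, at adjusted p of 0.0785 to 0.157. NRP2 had 7.75, 7.98 and 9.44 CPM in si-SNHG17-1 and 5.02, 6.16 and 7.57 CPM in si-NC, without overlap and without a call (0.42, edgeR adjusted p = 0.215). Endothelial cells also carry NRP1 and EPHB4, and summed over 5 endothelial markers the level was 6.32 to 8.22 CPM in si-SNHG17-1 and 2.77 to 4.41 CPM in si-NC. Of these markers KDR was at 0 counts in every library, and CDH5 was called higher (5.89 ± 0.843 CPM in si-SNHG17-1 and 1.696 ± 0.685 CPM in si-NC, SD, n = 3 each). PECAM1 went the other way without a call, at 0.419, 0.902 and 0.456 CPM in si-SNHG17-1 and 1.96, 1.15 and 1.01 CPM in si-NC, and VWF and TEK had overlapping groups. Their part in the NRP1 and EPHB4 results was not tested.

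Of 18 tested semaphorins, SEMA3G was the single call. This secreted semaphorin acts through NRP2. It had 37, 51 and 28 counts in si-SNHG17-1 and 120, 71 and 113 in si-NC. In CPM it was at 0.968, 1.21 and 0.912 in si-SNHG17-1, against 3.18, 1.701 and 2.85 in si-NC, with no overlap. It fell by 1.32 on the log2 scale (standard error 0.32, edgeR adjusted p = 0.0435). Its counts were low. Among edgeR fits that dropped 1 library, the call was kept only without si-NC replicate 2 (adjusted p = 0.0340). Without any of the other libraries the adjusted p was between 0.0920 and 0.134. The call was not made by limma-voom (0.0811), which called 5.47% of all genes higher and 5.38% lower.

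The abundant semaphorins were the secreted SEMA3B, SEMA3F and SEMA3C, and none of them was called. SEMA3B and SEMA3F, both known as tumour suppressor genes of the short arm of chromosome 3, lie near each other at 50267558 to 50277546 and 50155045 to 50189075 of GRCh38. SEMA3B had 206, 166 and 172 CPM in si-SNHG17-1 and 214, 165 and 236 CPM in si-NC (log2 fold change −0.18, edgeR adjusted p = 0.497). SEMA3F had 90.3, 101 and 93.6 CPM in si-SNHG17-1 and 106, 94.9 and 110 CPM in si-NC (−0.12, edgeR adjusted p = 0.432). SEMA3C had 87.7, 70.2 and 86.9 CPM in si-SNHG17-1 and 97.2, 87.4 and 81.7 CPM in si-NC (−0.12, edgeR adjusted p = 0.564). In all 3 genes the groups overlapped. The less abundant SEMA3A and SEMA3D had log2 fold changes of 0.41 and 0.36, not called.

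The membrane-bound class 4 semaphorins, ligands of the B-type plexins, had mostly small positive log2 fold changes, none called. SEMA4F, SEMA4D, SEMA4B and SEMA4C had 0.45, 0.33, 0.23 and 0.13, and SEMA4G had −0.66 (edgeR adjusted p = 0.0947). Exons of MRPL43, on the opposite strand, overlap 22.3% of the exonic bases of SEMA4G. MRPL43 had 1849, 2122 and 1758 counts in si-SNHG17-1 and 2203, 2342 and 2398 in si-NC. SEMA4G had 92, 93 and 62 counts in si-SNHG17-1 and 124, 171 and 124 in si-NC, so its value is uncertain. All 4 class 6 semaphorins, ligands of A-type plexins, had negative log2 fold changes between −0.77 and −0.12, with overlapping groups in each. SEMA7A, which is anchored in the membrane by a lipid, had 22.8, 21.2 and 20.7 CPM in si-SNHG17-1 and 15.02, 15.3 and 21.6 CPM in si-NC (0.32, edgeR adjusted p = 0.278). SEMA5B had the lowest fitted value of all members, −2.0 with a standard error of 0.98, on 0, 5 and 5 counts in si-SNHG17-1 and 12, 13 and 20 in si-NC, and was not called (edgeR adjusted p = 0.240).

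Levels per kilobase of longest transcript were summed to set ligands against receptors. Receptor RNA came to 215 ± 4.43 CPM per kilobase in si-SNHG17-1 cells and 249 ± 6.77 in si-NC cells (SD, n = 3 each), without overlap between the groups. The largest falls behind this net difference of −34.3 were those of EPHB4, PLXNB2 and EPHA2, at −13.7, −13.5 and −12.0, while PLXNA1 added 5.63. Ligand RNA came to 244, 231 and 222 CPM per kilobase in si-SNHG17-1 and to 228, 220 and 274 in si-NC, with overlap. The ratio of ligand to receptor RNA was 1.15, 1.05 and 1.04 in si-SNHG17-1 and 0.911, 0.911 and 1.07 in si-NC, also with overlap. By median transcript length the sums were larger, with receptor RNA at 1267 ± 23.5 in si-SNHG17-1 and 1435 ± 48.2 in si-NC (SD, n = 3 each), again without overlap. The largest falls behind this net difference of −168 were −57.3 for PLXNB2, −57.0 for EPHA2, −55.2 for EPHB4 and −42.0 for PLXND1. PLXNA1 was higher, at 60.1 in si-SNHG17-1 and 39.6 in si-NC. On that length the ligand to receptor ratio was 0.524, 0.479 and 0.501 in si-SNHG17-1 and 0.450, 0.437 and 0.465 in si-NC, without overlap, so both its level and the overlap depended on the length used. By longest transcript EFNA1 and SEMA3B led the ligands, with 70.0 and 55.2 CPM per kilobase in si-SNHG17-1 and 76.7 and 62.4 in si-NC, and EPHA2 led the receptors with 107 and 119. By median length EPHA2 still led the receptors, but SEMA3C led the ligands, with 140 in si-SNHG17-1 and 152 in si-NC, beside 105 and 115 for EFNA1. The median was 582 bases for SEMA3C, 835 for EPHA2 and 1288 for EFNA1, against 5174, 3964 and 1926 for the longest. Sums and ratios by median length thus also depend on the short transcripts annotated. The summed level of 5 epithelial markers was 731 to 742 CPM in si-SNHG17-1 and 844 to 961 CPM in si-NC, nearly all KRT8 and KRT18, of which KRT18 was called lower, and the other 3 stayed under 1 CPM. That of 6 mesenchymal markers was 1167 to 1271 CPM in si-SNHG17-1 and 973 to 1343 CPM in si-NC, with COL1A1 and COL3A1 called higher. Of the others, CDH2 was higher and PDGFRB lower without overlap, neither of them called (log2 fold changes 0.22 and −0.28). VIM had a log2 fold change of −0.00, and COL1A2 had 0 counts in every library. The part of these epithelial and mesenchymal markers in the receptor sums was not tested.

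**Figure D4:**
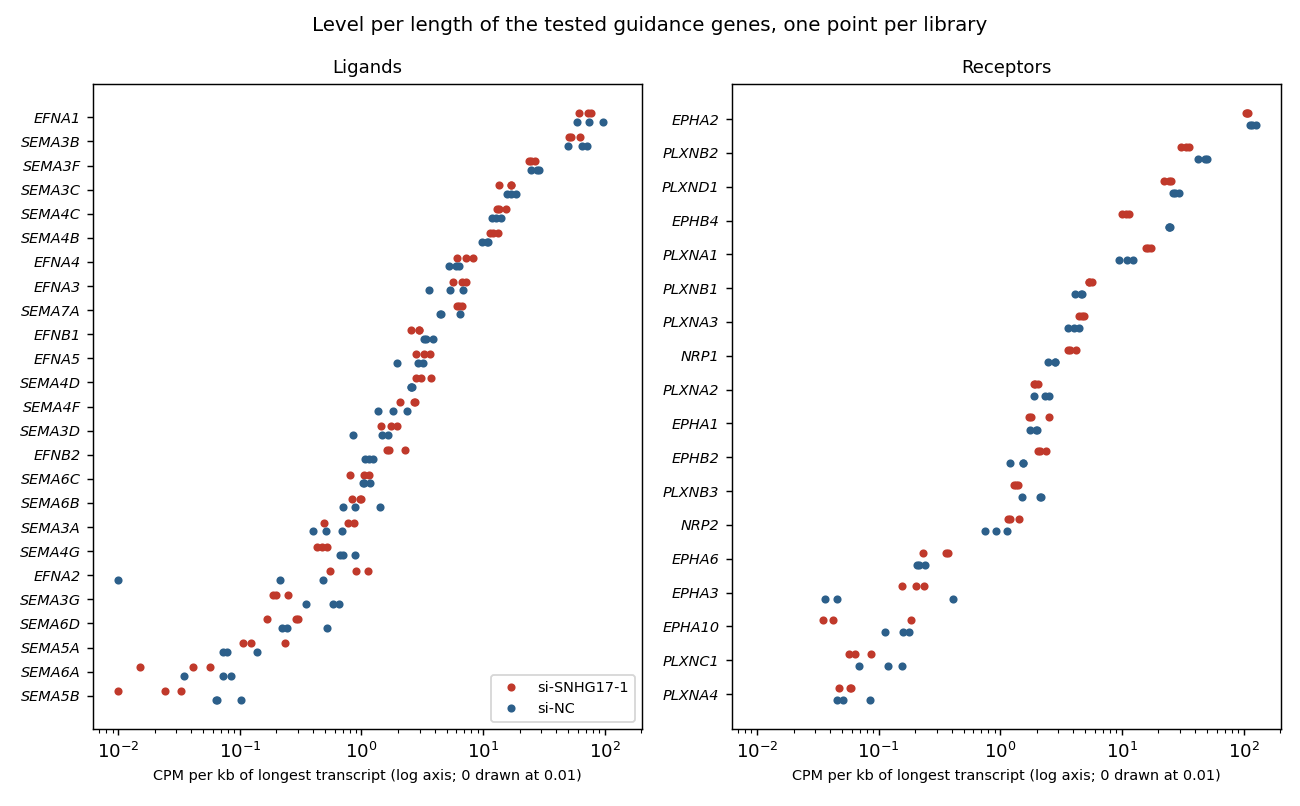
Level of each tested guidance gene in CPM per kilobase of its longest transcript (x axis, log scale), with 1 point per library, red for si-SNHG17-1 and blue for si-NC. EPHA2 leads the receptors at 107 (si-SNHG17-1 mean) and 119 (si-NC mean), EFNA1 leads the ligands on this length, and EPHB4 is at a mean of 10.7 in si-SNHG17-1 and 24.5 in si-NC.

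Downstream of these receptors, genes of the signalling and actin route were called in both directions. Of 63 listed effectors of Eph and plexin signalling, 58 were tested, 4 rose and 3 fell (12.1%, beside 10.5% of all genes), with a median log2 fold change of 0.13. RAC1, the GTPase that drives lamellipodia and binds plexins, was at 305, 304 and 316 CPM in si-SNHG17-1, against 189, 184 and 175 CPM in si-NC. The groups were well apart (log2 fold change 0.75, standard error 0.07, edgeR adjusted p = 0.00152). LIMK1, the kinase that inactivates cofilin, had 123, 96.8 and 128 CPM in si-SNHG17-1 and 40.2, 58.6 and 50.8 CPM in si-NC (1.21, standard error 0.16, edgeR adjusted p = 0.00576). Rises of the kinase gene ABL2 and of the adhesion molecule L1CAM, a partner of NRP1, were small (0.33 for both). Among fits that dropped 1 library, both kept the call only without si-NC replicate 1, and adjusted p reached 0.106 for ABL2 and 0.0965 for L1CAM.

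The endosomal GTPase RHOD, which binds plexins, was lower, at 50.6, 52.96 and 53.1 CPM in si-SNHG17-1 and 77.3, 88.3 and 94.2 CPM in si-NC (log2 fold change −0.73, standard error 0.10, edgeR adjusted p = 0.00545). RANBP9, a scaffold protein that binds plexins of the A type, had 77.6, 80.2 and 78.3 CPM in si-SNHG17-1 and 127, 125 and 116 CPM in si-NC (−0.64, standard error 0.07, edgeR adjusted p = 0.00373). RAC1, LIMK1, RHOD and RANBP9 kept their calls in all 13 alternative fits. RASA1, the Ras inhibitor bound by Eph receptors, fell by 0.66 but lost the call in every fit that dropped 1 library (adjusted p up to 0.124) other than that without si-NC replicate 3. Of the 9 called effector and netrin genes, RANBP9, which fell, and ABL2, which rose, each held the 7-base word once in the longest 3′ UTR. These 3′ UTRs had 864 bases in RANBP9 and 8391 in ABL2, and 8.73% of all genes searched held the word. RASA1 held the first 6 bases 2 times, without the full word. RHOA averaged 576 ± 24.4 CPM in si-SNHG17-1 and 577 ± 6.18 CPM in si-NC (SD, n = 3 each; log2 fold change −0.00, edgeR adjusted p = 0.979).

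Of 16 genes of the netrin and repulsive guidance molecule systems, 7 were tested and 2 rose (28.6%, beside 5.25% of all genes called higher), both of them secreted netrins. NTN3 had 20.9, 20.5 and 19.8 CPM in si-SNHG17-1 and 7.62, 8.81 and 11.4 CPM in si-NC (log2 fold change 1.14, standard error 0.17, edgeR adjusted p = 0.00870). NTN4 had 112, 107 and 119 CPM in si-SNHG17-1 and 45.0, 68.0 and 67.7 CPM in si-NC (0.90, standard error 0.16, edgeR adjusted p = 0.0153). Neither gene's groups overlapped. NTN4 lost the call without any of the si-SNHG17-1 replicates 1, 2 or 3 (0.0650, 0.0545 and 0.0679). Of the netrin receptors on the list, DCC was at 0 counts in every library and UNC5B averaged 2.10 CPM in si-SNHG17-1 and 2.48 CPM in si-NC. NEO1 averaged 0.890 CPM in si-SNHG17-1 and 0.905 CPM in si-NC. Neither UNC5B nor NEO1 was called.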

How the data were processed

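The deposited table holds whole-number raw counts for each gene and library, without normalisation. HISAT2 and GRCh38 are named in the submitters' processing notes, while no source used here gives the counting program, annotation release or strand setting. Among low counts, those divisible by 4 exceeded neighbouring values 1.53- to 1.74-fold in frequency, so the values may not be plain tallies of reads, and low genes are the less certain for it. Columns were assigned to samples by their titles. Replicates of a group differed by more than counting noise (chi-square over its degrees of freedom, 24.6 to 50.4), so none was taken as a library deposited again; this does not show that they were separate cultures.

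Counts were fitted with edgeR 4.0.16 in R 4.3.3 (filterByExpr with minimum count 10 and total 15, TMM, quasi-likelihood F test without a replicate block, Benjamini-Hochberg over all 18679 genes tested). Standard errors were taken from the fold change and its F statistic, as |log2 fold change|/√F. The code was tested on simulated data. Alternatives were DESeq2 1.42.0, limma-voom (limma 3.58.1), other scalings and filters, a replicate block and each library left out. Transcript lengths and 3′ UTRs came from GENCODE 29, in which all 53 members were found, 49 with identical coordinates. Median lengths were taken over all annotated transcripts of a gene, short ones included, and can be far below the longest.

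The members and lists were chosen with earlier results of these data known. Values per library are given for every called member, the 3 most abundant members of each role and those whose log2 fold change reached 1 in size. Up to 4 called effectors per direction are named, with values per library for RAC1, LIMK1, RHOD and RANBP9 but not for ABL2, L1CAM and RASA1.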

Additional observations from a re-analysis of the deposited data

How the results depend on the processing

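EPHB4, SNHG17, RAC1, LIMK1, RHOD, RANBP9 and NTN3 kept direction and call in all 13 alternative fits, and SNHG17 ranged from −1.53 to −1.47 on the log2 scale. Among the named genes that were refitted, EFNA1 changed sign, ranging from −0.29 without si-NC replicate 1 to 0.069 without si-NC replicate 3. With DESeq2, 1592 genes were higher and 1568 lower, against 980 and 974 by edgeR, 1 ligand was called higher and 1 gene of the netrin list lower. With no filter beyond a total above 0, 627 genes were lower, 1 member (1 receptor) was higher, 0 ligands were lower and 2 effectors were higher. By limma-voom 0 ligands were lower. A filter of 1 CPM in 3 libraries and total counts only each called 1 ligand higher. With the replicate block 273 genes were higher and 259 lower, 0 members (0 receptors) were higher, 1 member (1 receptor) and 0 ligands were lower, and 2 effectors were higher. The numbers are not known to pair the libraries, since same-numbered deviations correlated at −0.0367 to −0.0153.

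With a library left out, 313 to 694 genes were higher and 264 to 705 lower. Members called higher numbered 0 to 1 and lower 1 to 3, ligands 0 higher and 0 to 1 lower, and receptors 0 to 1 higher and 1 to 2 lower. Effectors ranged from 2 to 4 higher and 2 to 3 lower, and netrin-list genes from 1 to 2 higher. Fewer libraries leave less to test with; the cause of the other changes was not tested. With the median in place of the longest transcript length, levels per kilobase moved for most named members, and the leading ligand and plexin changed.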
